A study of Mus musculus with 8 samples.

Results

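The genes described here encode the nuclear subunits of oxidative phosphorylation, the set of inner mitochondrial membrane complexes that pass electrons from nutrients to oxygen and make ATP. They were taken by symbol: Nduf genes (complex I), Sdh genes (complex II), Uqcr genes (complex III), Cox4 to Cox8 genes (complex IV) and Atp5 genes (complex V), with Cox6a2 left out. Of 21789 probesets that each name exactly 1 gene, 118 belonged to this set, and they stand for 92 genes among 19938. A probeset is a group of array probes read out as 1 value, and 18 of the 92 genes had more than 1 probeset. By complex the set held 41 probesets for complex I, 4 for complex II, 11 for complex III, 20 for complex IV and 30 for complex V, and a further 12 for assembly factors whose symbols begin with Ndufaf or Sdhaf.

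Complex I (NADH dehydrogenase) and complex II (succinate dehydrogenase) pass electrons to coenzyme Q, complex III passes them on to cytochrome c, and complex IV (cytochrome c oxidase) hands them to oxygen. Complexes I, III and IV pump protons out of the matrix, and complex V (ATP synthase) lets them back to make ATP. Several subunits come in isoforms that tissues use to different degrees, and early T cell precursors divide rapidly, a state in which cells use both glycolysis and respiration.

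Transcript levels were measured on 8 expression arrays of mouse cells in 3 groups. All came from lymphoid primed bone marrow progenitors (Lin-Sca+kit+Flt3high, a stage that still gives rise to lymphoid and myeloid cells) kept for 4 days on OP9-DL4, a stromal line that displays the Notch ligand DL4, with Flt3L at 5 ng/ml and IL1 at 1 ng/ml, then sorted as CD45.2+ cells. Wildtype T cells (Tcf7+/+, sorted Thy1+CD25+, 2 arrays) are the T lineage cells that wildtype progenitors form. Deficient LN cells (Tcf7-/-, 3 arrays) and wildtype LN cells (Tcf7+/+, 3 arrays) are lineage negative cells, sorted Mac1-Gr1-Thy1-CD25-. Tcf7 encodes Tcf1, a transcription factor of the T lineage. Tcf7-/- progenitors formed no T cells in these cultures, per the labels, so there is no deficient T group. The LN arrays stand for separate mice, per the labels, and the mice were of a mixed background after about 6 backcrosses. The T arrays are called biological replicates with no word on separate mice, so the spread between these may be smaller than between mice. For each array 10 ng of total RNA was amplified. Bulk arrays cannot tell fewer cells of a type from less RNA per cell, and the normalisation makes every level relative to the other transcripts of its array. Genotypes are as labelled, since no value of the Tcf7 transcript was used.

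The T cells differed from both LN groups in lineage markers, while the LN groups differed from each other in 1 of all 21789 probesets, that of Il2ra, which encodes CD25. T lineage markers averaged 9.12 to 9.75 in the T arrays, against 6.72 to 6.82 in deficient LN and 6.76 to 6.88 in wildtype LN arrays, on the log2 scale of the deposited values, and 9 of 10 were higher in T cells than in wildtype LN cells. This list includes Thy1 and Il2ra, the genes of the markers used in the sort, so it is not independent of the gate. Dendritic cell markers averaged 6.33 to 6.53 in the T arrays, 9.81 to 10.11 in deficient LN and 10.05 to 10.30 in wildtype LN arrays, and all 9 measured were lower in T cells. Granulocyte and monocyte markers were lower for 8 of 12 against wildtype LN cells, although the LN gate removed Mac1+ and Gr1+ cells. Stromal markers gave 6.86 in both T arrays, 6.83 to 7.03 in deficient LN and 6.77 to 6.85 in wildtype LN arrays. The stromal list had no call between T and wildtype LN cells, and 1 of 9, Sparc, was lower in T than in deficient LN cells. Cycling cell markers gave 10.88 to 10.93 in the T arrays, 10.82 to 10.93 in deficient LN and 10.81 to 10.91 in wildtype LN arrays, and of 8 measured Mcm3 was higher and Mki67 and Top2a lower in T cells. The cell type differences run along every T comparison below, and their part in any result was not tested.

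The oxidative phosphorylation probesets varied little between arrays of a group. Their signals, with a median of 10.9 against 7 for all probesets tested, also depend on the probes and are no measure of relative abundance. Within groups their median SD was 0.068 log2 units, against 0.105 for all probesets. The members that spread most were a probeset of Uqcr11 (SD 0.24) and 1 of Atp5g2 (SD 0.22), and in both wildtype LN replicate 2 was the lowest array. T replicate 2 was the highest of the 8 arrays for 40 members and deficient LN replicate 1 was the lowest for 35. A library that often sits at the edge bears on the calls below, and its effect is given with each of them.

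Promoter sequence was read from RefSeq (GRCm38.p6) for 77 of the 92 genes, 82 promoters in all, each 250 bases before and 50 after the annotated start. The letters searched, on both strands, were those of factors known for respiratory genes. The NRF1 motif (GCGC, any base, then TGCGC) was present in 25.6% of the members' promoters and 4.60% of all 32851 promoters. The ETS motif CCGGAAG, which GABPA binds, was present in 25.6% and 8.86%, and the YY1 motif AANATGGCG in 13.4% and 2.38%. The estrogen-related receptor motif AAGGTCA stood in 8.54% against 4.72%, the NFY motif CCAAT in 41.5% against 37.4%, the E-box CACGTG in 8.54% against 7.15%, and the TCF/LEF motif CTTTGAT in 1.22% against 3.73%. A match is a description of the letters and not of binding, and no test was made of these shares. Promoters with NRF1, ETS or YY1 letters were thus more common among the members, while NFY and E-box letters were nearly as common in both.

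**Figure D1:**
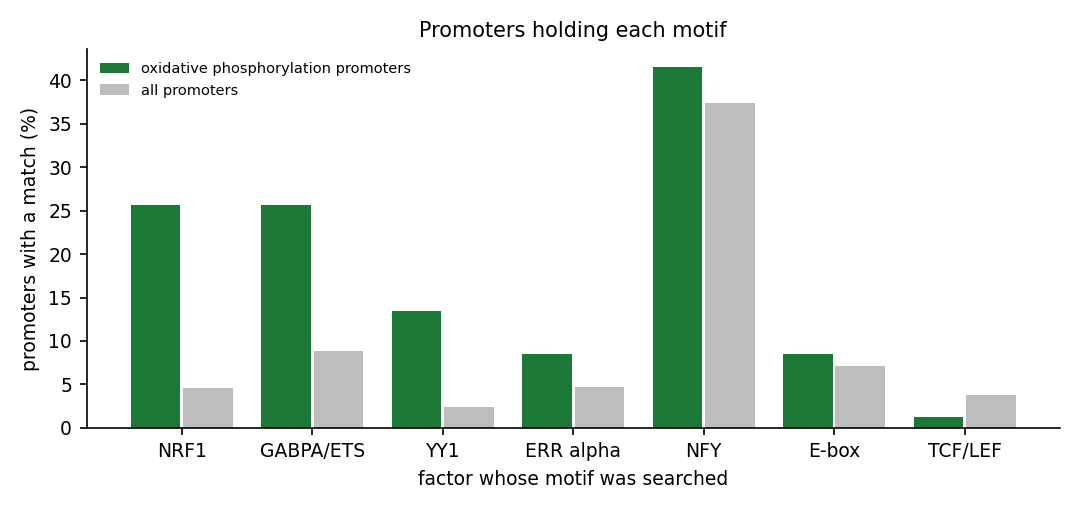
Share of promoters (%) that hold each motif on either strand, for 82 promoters of oxidative phosphorylation genes (green) and 32851 RefSeq promoters (grey). NRF1, ETS and YY1 letters were more frequent in the green bars (25.6%, 25.6% and 13.4%), and TCF/LEF letters were rare in both (1.22% and 3.73%).

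Shown next are the 250 bases before the start for 5 genes on which the T cell comparison turns, 2 higher and 3 lower in T cells, 5′ to 3′ on the gene's strand, with the motif letters in capitals.
Atp5g1 chr11:96075632-96075881 (-): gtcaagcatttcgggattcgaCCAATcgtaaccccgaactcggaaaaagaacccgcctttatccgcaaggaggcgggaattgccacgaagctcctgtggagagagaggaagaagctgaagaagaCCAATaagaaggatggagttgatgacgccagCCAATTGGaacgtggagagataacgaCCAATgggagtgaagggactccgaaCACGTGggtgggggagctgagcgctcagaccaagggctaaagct
Uqcr11 chr10:80406822-80407071 (-): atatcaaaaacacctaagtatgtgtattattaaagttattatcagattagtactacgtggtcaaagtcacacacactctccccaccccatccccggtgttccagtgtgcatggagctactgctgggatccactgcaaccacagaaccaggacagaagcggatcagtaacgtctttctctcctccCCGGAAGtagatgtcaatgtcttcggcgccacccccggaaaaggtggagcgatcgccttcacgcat
Ndufb11 chrX:20617620-20617869 (-): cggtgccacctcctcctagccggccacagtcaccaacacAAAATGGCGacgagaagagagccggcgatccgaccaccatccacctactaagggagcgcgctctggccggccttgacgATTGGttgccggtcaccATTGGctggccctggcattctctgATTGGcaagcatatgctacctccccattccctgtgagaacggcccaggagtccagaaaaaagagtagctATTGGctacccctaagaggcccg
Sdhaf4 chr1:24005641-24005890 (-): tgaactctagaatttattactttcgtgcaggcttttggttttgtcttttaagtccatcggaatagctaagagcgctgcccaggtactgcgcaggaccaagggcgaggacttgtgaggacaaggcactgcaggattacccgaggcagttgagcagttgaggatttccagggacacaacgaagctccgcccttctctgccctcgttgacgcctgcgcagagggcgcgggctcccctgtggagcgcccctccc
Cox7a2l chr17:83514334-83514583 (-): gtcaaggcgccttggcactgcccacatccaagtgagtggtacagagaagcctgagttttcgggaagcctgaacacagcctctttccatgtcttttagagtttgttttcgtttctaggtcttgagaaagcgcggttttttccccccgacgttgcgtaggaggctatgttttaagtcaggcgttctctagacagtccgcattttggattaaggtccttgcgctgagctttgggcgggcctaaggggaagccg
Atp5g1 carries 5 NFY motifs, of which a pair overlaps on opposite strands, and 1 E-box whose first base is 44 bases before the start. Uqcr11 carries 1 ETS motif at 66 bases before the start. Ndufb11 carries the YY1 letters AAAATGGCG at 211 bases before the start and 4 NFY motifs. In the stretches shown for Sdhaf4 and Cox7a2l none of the 7 motifs was found, and the NRF1 match of Sdhaf4 lies after the start. Among the 4 genes higher in T cells that had a promoter entry, and the 5 that were lower, no motif was held by all.

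The comparison of deficient LN with wildtype LN cells asks whether lineage negative cells grown from progenitors without Tcf1 differ in their respiratory transcripts. No member passed the test: 0 of 118 probesets had an adjusted p under 0.05 in limma (Benjamini-Hochberg over all 21789 probesets, two-sided), where 0.00459% of all probesets did, which is 1 probeset. Without the dimmest 40% of probesets it was 0 of 115, where 0.00765% of all did. At an unadjusted p under 0.05 there were 2 of 118, against 4.92% of all. The median difference over the members was -0.02 log2 units, against -0.01 over all probesets. Below 0 were 82 of the 118, and 11662 of all 21789. The 118 include repeat probesets of 1 gene, such as 6 of Atp5l, which are not separate evidence. Every member differed by less than 0.25 log2 units.

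The widest 95% intervals among the members reached -0.47 and 0.51, that is 1.39-fold lower and 1.42-fold higher, so larger differences than these lie outside every interval. By complex the medians were -0.05 for complex I, -0.03 for complex II, 0.00 for complex III, -0.01 for complex IV, -0.02 for complex V and -0.09 for the assembly factors. Of the assembly factor probesets 10 of 12 were below 0, where 11662 of all 21789 were. Ndufs5, an accessory subunit of complex I, had the most negative difference. It stood at 9.87, 10.11 and 9.82 in the deficient LN arrays, against 9.97, 10.30 and 10.24 in the wildtype LN arrays. The groups overlapped, and the difference of -0.24 (SE 0.11) had an adjusted p of 0.999 in limma. Ndufab1, the mitochondrial acyl carrier protein, which is also a complex I subunit, was 9.97, 9.96 and 9.92 in deficient LN arrays, against 10.07, 10.12 and 10.07 in wildtype LN arrays. These 2 sets of arrays did not overlap, and the difference of -0.14 (SE 0.06) again had an adjusted p of 0.999. The other Ndufab1 probeset gave -0.16 (SE 0.07), also without overlap and with an adjusted p of 0.999. Lack of overlap was not particular to Ndufab1, since Ndufa9 and both Atp5pb probesets, among others, showed it too. Its share over all probesets was not counted, so nothing is read from it.

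Positive differences were led by Uqcrq, a small complex III subunit, at 10.53, 10.42 and 10.66 in deficient LN arrays, against 10.46, 10.10 and 10.43 in wildtype LN arrays. The low value of wildtype LN replicate 2 stands apart, the arrays overlap, and the difference was 0.21 (SE 0.10, adjusted p = 0.999). The testis isoform Cox8c (0.20), 3 probesets of the c-ring gene Atp5g2 (0.19, 0.18 and 0.12) and both of Uqcr11 (0.18 and 0.10) had the same adjusted p. For Atp5g2 the wildtype LN replicate 2 array gave 10.48, 10.63 and 10.63, lower than all 7 other arrays in each case. A p that misses the threshold does not show that the genotypes are alike in these transcripts.

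**Figure D2:**
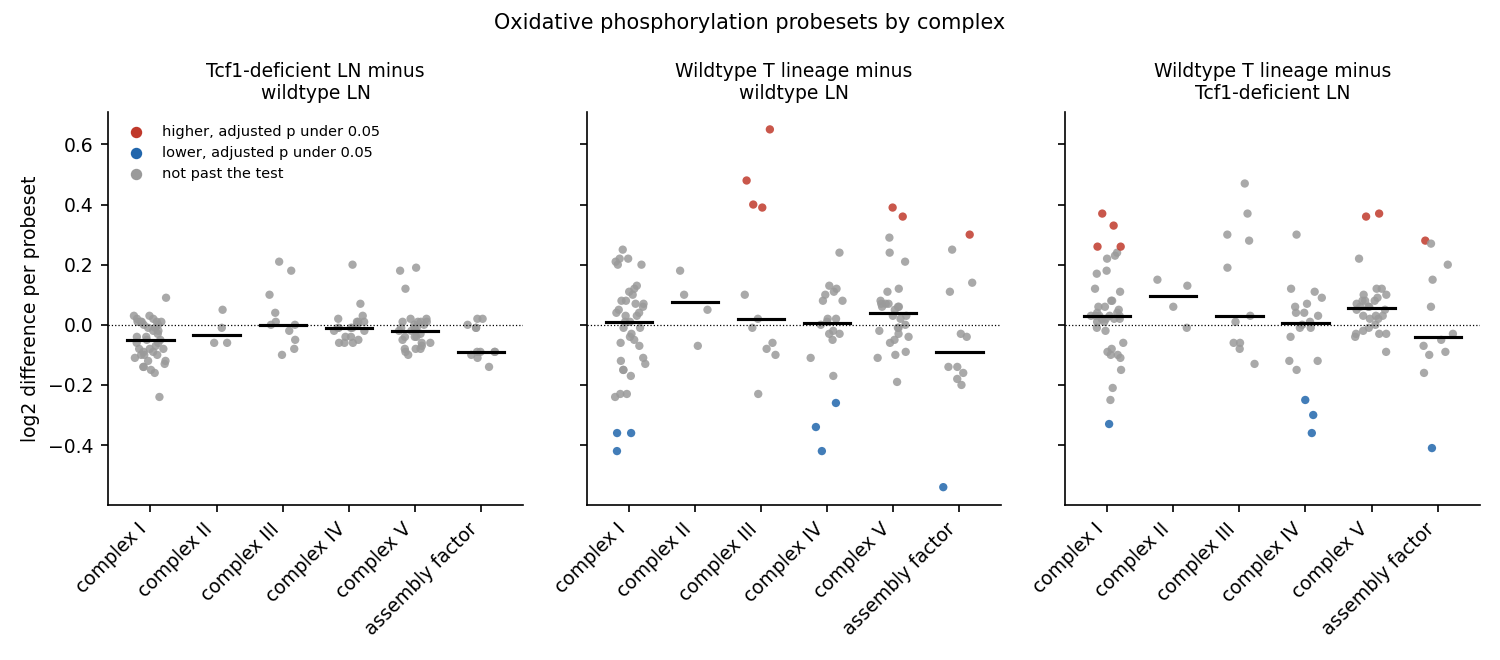
Log2 difference of every oxidative phosphorylation probeset by complex for the 3 comparisons, with the median of each complex as a black bar; red and blue points passed the test (adjusted p under 0.05) as higher and lower. The genotype comparison spans -0.24 to 0.21 with no coloured point, and the largest difference in T cells is 0.65 in complex III.

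Wildtype T cells were compared with wildtype LN cells to ask what differs between cells of 1 genotype that did and did not enter the T lineage. Here 14 of 118 members passed the test, 7 higher and 7 lower in T cells, where 18.0% of all probesets did (7.66% higher and 10.4% lower). The members' share was 11.9%, below the background. Without the dimmest 40% of probesets it was 17 of 115 (14.8%), where 30.6% of all passed, and at an unadjusted p under 0.05 it was 28 of 118, where 29.4% did. Their median difference was 0.02 against 0.04 over all probesets. Only 1 of 118 differed by 1.5-fold or more, against 7.38% of all probesets. The 14 probesets belong to 10 genes: Uqcr11, Uqcrq, Uqcrc1, Atp5g1 and Ndufaf2 were higher, and Sdhaf4, Ndufb11, Ndufa6, Cox7a2l and Cox6b2 were lower. These counts move with single arrays and with the setting: without T replicate 1 there were 5 called members (3 higher, 2 lower), without T replicate 2 there were 6 (0 higher, 6 lower), and without wildtype LN replicates 2 and 3 there were 8 and 9. Over every probeset of the table the count was 9 (2 higher, 7 lower), at an adjusted p under 0.01 there were 4, all lower, and with a trended robust variance 22 (11 higher, 11 lower). A second quantile normalization gave 12 higher and 7 lower.

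**Figure D3:**
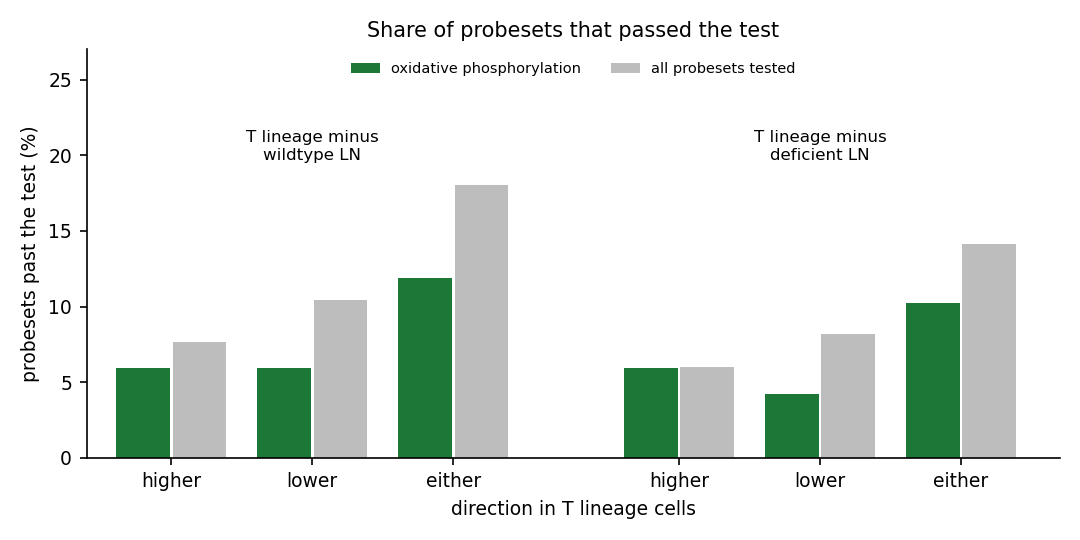
Share of probesets (%) with an adjusted p under 0.05, by direction in T cells, for the 118 oxidative phosphorylation probesets (green) and all 21789 probesets (grey). Against wildtype LN cells the green bars reach 11.9% in all and the grey 18.0%; against deficient LN cells they reach 10.2% and 14.1%.

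Complex I gave no higher and 3 lower probesets of 41, where 10.4% of all probesets were lower, with a median of 0.01. Ndufb11, an accessory subunit of its membrane arm, fell on both probesets. The dimmer 1 read 8.62 and 8.65 in T arrays, against 9.01, 9.08 and 9.08 in wildtype LN arrays. Every T array lay below every wildtype LN array, by -0.42 (SE 0.07, adjusted p = 0.00164 in limma). Its brighter probeset read 11.48 in both T arrays, against 11.78, 11.89 and 11.84 in wildtype LN arrays, a difference of -0.36 (SE 0.08, adjusted p = 0.00835). The first kept its call under all alternatives run, and the second lost it without T replicate 1 (-0.36, adjusted p = 0.0501). Ndufa6, an LYR motif accessory subunit, read 10.03 and 10.21 in T arrays, against 10.36, 10.54 and 10.54 in wildtype LN arrays. Both T values were lower, by -0.36 (SE 0.09, adjusted p = 0.0159). The call was lost without T replicate 1 (-0.27) and without wildtype LN replicate 2 or 3 (-0.33 in both). Core subunits named here did not pass: Ndufs1, the largest iron-sulphur subunit, differed by 0.03 (adjusted p = 0.84) and Ndufv1, which holds the FMN, by 0.20 (adjusted p = 0.139). Complex II, which shares its enzyme with the citric acid cycle, gave no call in 4 probesets, where 18.0% of all probesets were called. Sdha, the flavoprotein, differed by 0.18 (adjusted p = 0.163) and Sdhb, the iron-sulphur subunit, by -0.07 (adjusted p = 0.605).

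Complex III gave 4 higher probesets of 11 (7.66% of all probesets were higher), for 3 of its 8 genes in the set. It gave no lower one, and its median was 0.02. Without wildtype LN replicate 1 or 2 the count was 2, without T replicate 1 it was 1, and without T replicate 2 it was 0. Uqcr11, the smallest accessory subunit, gave the largest difference in the set. Its first probeset read 9.53 and 9.62 in T arrays, against 9.08, 8.52 and 9.16 in wildtype LN arrays. All T values were above, with wildtype LN replicate 2 far below the other arrays, and the difference was 0.65 (SE 0.16, adjusted p = 0.018). Without that array the difference was 0.46 and still passed (adjusted p = 0.0183), and without T replicate 1 or T replicate 2 it was 0.70 and 0.61 and did not pass. Nor did it pass over every probeset of the table (adjusted p = 0.066). The second probeset followed the first over the 8 arrays (r = 0.93). Both may share target sequence, of the gene or of near-identical copies, and do not count as separate evidence. The second read 9.73 and 9.87 in T arrays, against 9.36, 9.29 and 9.57 in wildtype LN arrays. Both T values were again above, by 0.39 (SE 0.10, adjusted p = 0.0158). This call was lost without wildtype LN replicate 1 (0.37), wildtype LN replicate 2 (0.34) or T replicate 2 (0.32).

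Uqcrq, the subunit that lies beside cytochrome b, read 10.81 and 10.82 in T arrays, against 10.46, 10.10 and 10.43 in wildtype LN arrays. Both T values lay close together and above, by 0.48 (SE 0.12, adjusted p = 0.0147). Without either T array the difference stayed near that value but did not pass (0.49 without T replicate 1 and 0.48 without T replicate 2), and without wildtype LN replicate 2 it was 0.36 and passed. Over every probeset of the table it did not pass (adjusted p = 0.0502). Uqcrc1, a core protein, read 9.71 and 9.87 in T arrays, against 9.29, 9.33 and 9.53 in wildtype LN arrays. The T arrays were above, by 0.40 (SE 0.12, adjusted p = 0.0399). That call was lost without deficient LN replicate 3 (0.40), wildtype LN replicate 1 (0.36), wildtype LN replicate 2 (0.38), T replicate 1 (0.49) or T replicate 2 (0.32), and over every probeset of the table (adjusted p = 0.1). The other complex III genes did not pass. The Rieske iron-sulphur protein Uqcrfs1 read 10.31 and 10.32 in T arrays, against 10.48, 10.60 and 10.56 in wildtype LN arrays, a difference of -0.23 (adjusted p = 0.0598). The second core protein Uqcrc2 differed by 0.02, the hinge protein Uqcrh by -0.08 and Uqcr10 by 0.10, while 3 probesets of Uqcrb ran between -0.10 and -0.01.

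**Figure D4:**
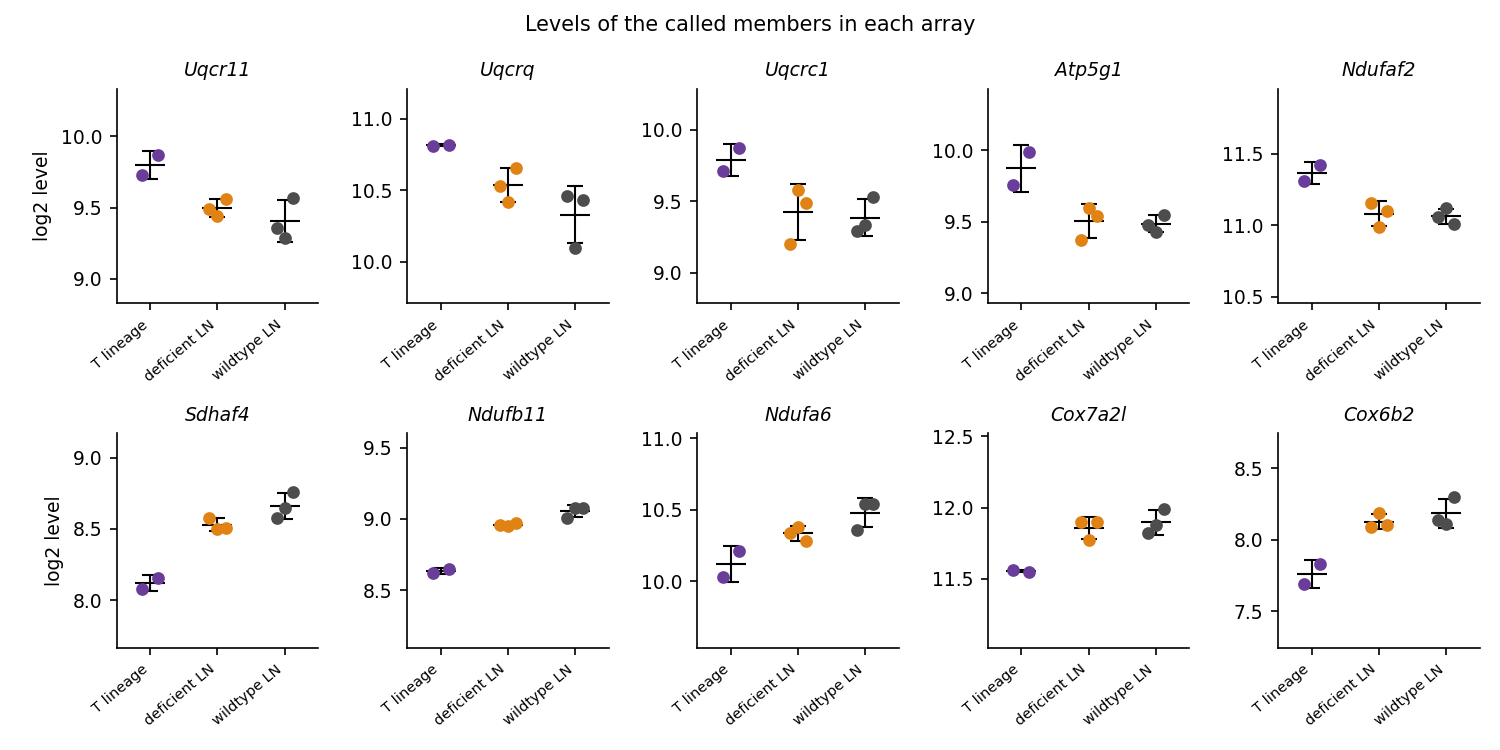
Log2 level in each array (points) with the group mean and SD (bars) for the 10 genes that passed the test between T cells and wildtype LN cells, using the probeset with the smallest p; each panel spans 1.5 log2 units. In the top row both T arrays lie above all wildtype LN arrays and in the bottom row below them, while the deficient LN arrays sit near the wildtype LN arrays.

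Complex IV gave no higher and 3 lower probesets of 20, for 2 genes, where 10.4% of all probesets were lower. Cox7a2l, a subunit-like protein known for joining complexes III and IV into supercomplexes, read 11.56 and 11.55 in T arrays, against 11.82, 11.88 and 11.99 in wildtype LN arrays. The T arrays were below, by -0.34 (SE 0.08, adjusted p = 0.0143). The call was lost without wildtype LN replicate 3 (-0.30), T replicate 1 (-0.34) or T replicate 2 (-0.34). Its other probeset differed by -0.26 (adjusted p = 0.03), which leaving out any 1 of the T or wildtype LN arrays brought to between -0.28 and -0.23 with no call, as did median centring (-0.25, adjusted p = 0.0501). Cox6b2, the testis isoform of subunit 6b, read 7.69 and 7.83 in T arrays, against 8.14, 8.11 and 8.30 in wildtype LN arrays. All T values were below, by -0.42 (SE 0.09, adjusted p = 0.00598), a call lost without T replicate 1 (-0.35).

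Most subunits of complex IV did not pass. The regulatory subunit Cox4i1 read 12.22 and 12.32 in T arrays, against 12.33, 12.23 and 12.34 in wildtype LN arrays, and differed by -0.03 (adjusted p = 0.845). Its isoform Cox4i2, known for hypoxia and lung, read 7.54 and 7.70 in T arrays, against 7.27, 7.42 and 7.46 in wildtype LN arrays. These did not overlap, but the difference of 0.24 had an adjusted p of 0.132, and 0.0472 after a second quantile normalization. Cox5a differed by -0.05, Cox5b by 0.12 and the widely expressed Cox6a1 by 0.08. Cox7a2 differed by -0.03 and its muscle isoform Cox7a1 by -0.11. Ndufa4, once counted with complex I and now with complex IV, differed by -0.15 (adjusted p = 0.225) and its relative Ndufa4l2 by 0.04. By their symbols both are counted here among the 41 complex I probesets.

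Complex V gave 2 higher and no lower probesets of 30, where 7.66% of all probesets were higher. Both were of Atp5g1, 1 of 3 genes that encode the same mature c-ring protein behind different import signals. The first probeset read 9.76 and 9.99 in T arrays, against 9.48, 9.43 and 9.55 in wildtype LN arrays. T cells were above by 0.39 (SE 0.10, adjusted p = 0.0166), and without wildtype LN replicate 2 (0.37) or T replicate 2 (0.28) the call was lost. The second followed it across the 8 arrays (r = 1) and differed by 0.36 (adjusted p = 0.0285), and its call was lost over every probeset of the table (adjusted p = 0.0694) and without single arrays: without wildtype LN replicates 1, 2 and 3 it was 0.35, 0.34 and 0.38, and without T replicate 2 it was 0.24. Probes of 1 gene, or of near-identical copies of it, may share target sequence and do not count as separate evidence. Atp5g2 read 11.18 and 11.09 in T arrays, against 11.05, 10.48 and 11.01 in wildtype LN arrays, on its probeset with the smallest p. Wildtype LN replicate 2 alone was low, and the difference of 0.29 (SE 0.16) had an adjusted p of 0.256. Atp5g3 differed by 0.00 (adjusted p = 0.987), at 12.06 and 12.13 in T arrays, against 12.10, 12.11 and 12.06 in wildtype LN arrays. The catalytic core gave 0.07 for Atp5a1, 0.11 for Atp5b and -0.02 for Atp5c1, with adjusted p values of 0.586, 0.342 and 0.888. The ATPase inhibitor Atpif1, which lies outside the set by its symbol, differed by -0.01 (adjusted p = 0.922).

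**Figure D5:**
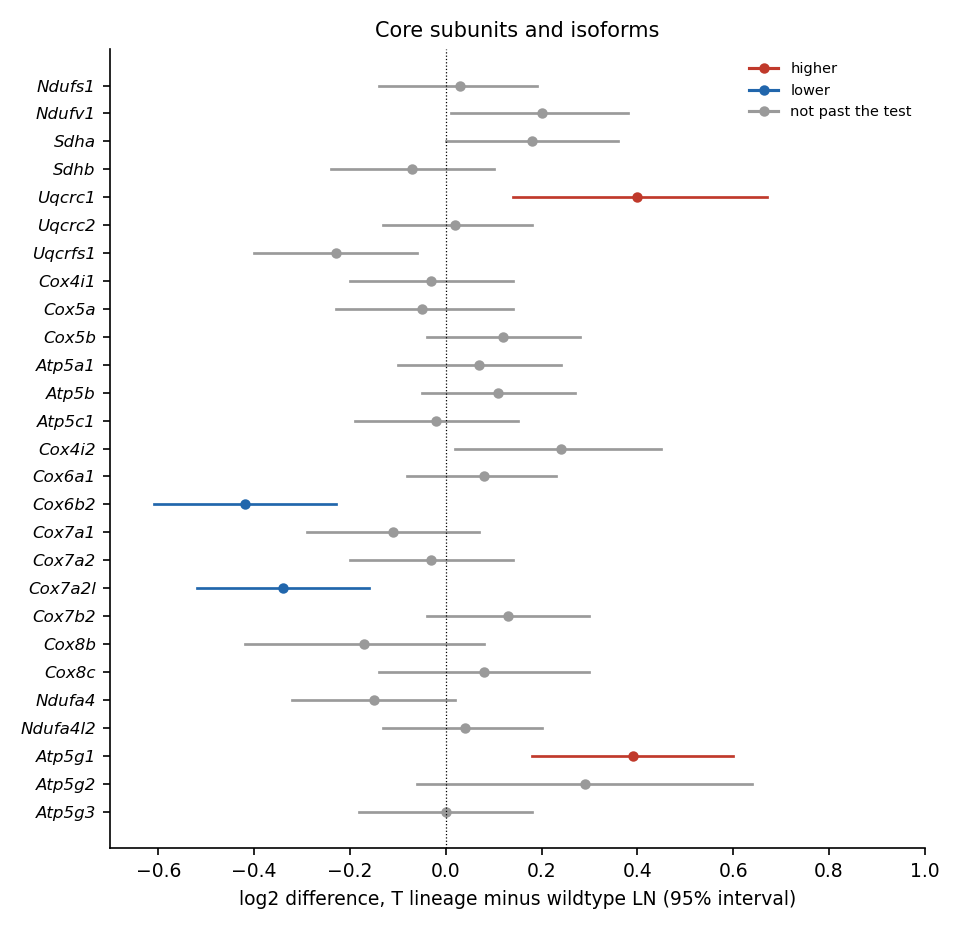
Log2 difference between T cells and wildtype LN cells, with its 95% interval, for core subunits and isoforms, 1 probeset per gene; red and blue passed the test as higher and lower. Uqcrc1 (0.40) and Atp5g1 (0.39) are the red points, Cox6b2 (-0.42) and Cox7a2l (-0.34) the blue ones, and core subunits of complexes I, II, IV and V lie between -0.07 and 0.20.

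Among the assembly factors 1 probeset of 12 was higher and 1 lower, where 7.66% of all probesets were higher and 10.4% lower. Sdhaf4, which helps complex II assemble around Sdha, had the smallest adjusted p of the set. It read 8.08 and 8.16 in T arrays, against 8.58, 8.65 and 8.76 in wildtype LN arrays. Both T arrays lay below all of them, by -0.54 (SE 0.08, adjusted p = 0.0008), and the call held under every alternative run, at -0.59 to -0.47. A second, dimmer Sdhaf4 probeset did not follow it: it read 6.96 and 6.90 in T arrays, against 7.01, 6.98 and 6.93 in wildtype LN arrays (-0.04, adjusted p = 0.774), and the correlation of these 2 probesets over the 8 arrays, which share group and library, was -0.01. The Sdhaf4 result thus rests on 1 of its 2 probesets. Ndufaf2, a complex I assembly factor, read 11.31 and 11.42 in T arrays, against 11.06, 11.12 and 11.01 in wildtype LN arrays. The T arrays were above by 0.30 (SE 0.08, adjusted p = 0.0273). The call was lost without wildtype LN replicate 1 (0.30), wildtype LN replicate 3 (0.28), T replicate 1 (0.36) or T replicate 2 (0.25), and when p was adjusted over every probeset of the table (adjusted p = 0.0552).

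Wildtype T cells were also compared with deficient LN cells, which differ from them in genotype as well as lineage. The same T arrays enter both T comparisons, so the results are not independent. Here 12 of 118 members (10.2%) passed the test, 7 higher and 5 lower, where 14.1% of all probesets did (5.98% higher and 8.16% lower), and the median difference was 0.03 against 0.04. Without the dimmest 40% of probesets it was 17 of 115, where 24.6% of all passed, and at an unadjusted p under 0.05 it was 24 of 118, where 26.2% did. The count was 3 without either T array, 4 without deficient LN replicate 1, 6 without deficient LN replicate 3 and 7 without wildtype LN replicate 1, which enters through the shared estimate of the spread. Over every probeset of the table it was 5, with only the 2 groups compared 6, with 1 probeset per gene 7, at an adjusted p under 0.01 2, and with a trended robust variance 19. A second quantile normalization gave 12 higher and 6 lower. Of the genes named next, the calls of Atp5g1, Ndufaf2, Ndufab1, Ndufa5 and Cox7a2l were lost both over every probeset and with only the 2 groups compared, and those of Ndufaf2, Ndufab1 and the dimmer Cox7a2l probeset also after median centring.

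Of 41 complex I probesets 4 were higher in this comparison, for 3 genes, 1 was lower and 36 were not called. Among all probesets 5.98% were higher and 8.16% lower. The share of higher probesets was thus above that of all probesets and the share of lower ones below it, with few probesets in each. Ndufa11, a membrane arm subunit, read 9.88 and 10.05 in T arrays, against 9.51, 9.65 and 9.62 in deficient LN arrays. T cells were above by 0.37 (SE 0.09, adjusted p = 0.017), and by 0.33 (adjusted p = 0.0191) on its other probeset. Against wildtype LN cells the same probesets gave 0.25 and 0.21 and did not pass (adjusted p = 0.0814 and 0.104). The calls of Ndufa11 were lost without deficient LN replicate 1 (0.33 and 0.28) or T replicate 2 (0.28 and 0.32), and that of the second also without T replicate 1 (0.33). Ndufab1 read 10.18 and 10.24 in T arrays, against 9.97, 9.96 and 9.92 in deficient LN arrays, a difference of 0.26 (adjusted p = 0.0325), and 0.12 (adjusted p = 0.293) against wildtype LN cells. Its other probeset gave 0.24 against deficient LN cells and did not pass (adjusted p = 0.0682). Ndufa5, an accessory subunit of the matrix arm, read 10.84 and 10.75 in T arrays, against 10.54, 10.60 and 10.46 in deficient LN arrays, a difference of 0.26 (adjusted p = 0.0464), and 0.22 (adjusted p = 0.0764) against wildtype LN cells. In both genes the T values were above, and both calls were lost without several single arrays: Ndufab1 was 0.27 and 0.24 without deficient LN replicates 1 and 3, 0.26 without wildtype LN replicate 1 or 3, and 0.29 and 0.23 without T replicates 1 and 2. Ndufa5 was 0.26 and 0.22 without deficient LN replicates 1 and 3, 0.26 without any 1 wildtype LN array, and 0.21 and 0.31 without T replicates 1 and 2. For these 3 genes the direct test of deficient against wildtype LN cells gave -0.12 for both Ndufa11 probesets and -0.04 for Ndufa5. Ndufab1 gave -0.14, and -0.16 on its other probeset. Each had an adjusted p of 0.999, so a difference between the 2 T comparisons was not shown.

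The remaining calls against deficient LN cells fell on genes already named. Atp5g1 gave 0.37 and 0.36 (adjusted p = 0.0266 and 0.032), with 9.37, 9.60 and 9.54 in the deficient LN arrays on the first probeset. Those calls were lost without deficient LN replicate 1 (0.30 and 0.29) or T replicate 2 (0.26 and 0.25), and the second also without deficient LN replicate 3 (0.38) or wildtype LN replicate 1 (0.36). Ndufaf2 gave 0.28 (adjusted p = 0.0425), lost without any 1 array other than deficient LN replicate 1, with 0.23 without T replicate 2 the lowest. The dimmer Sdhaf4 probeset gave 0.06 and did not pass (limma adjusted p = 0.711). The brighter Sdhaf4 probeset gave -0.41 (adjusted p = 0.00633), Cox6b2 -0.36 (adjusted p = 0.0165) and the dimmer Ndufb11 probeset -0.33 (adjusted p = 0.00966). Without T replicate 1 these were -0.37, -0.29 and -0.31 and did not pass. Cox7a2l gave -0.30 and -0.25 (adjusted p = 0.0325 and 0.0428). Its first probeset lost the call without deficient LN replicate 1 or 3 (-0.28 in both) or either T array (-0.30 in both), and its second without any 1 array other than deficient LN replicate 2, at -0.27 to -0.22.

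The complex III genes did not pass against deficient LN cells. The Uqcr11 probesets gave 0.47 and 0.30 (adjusted p = 0.0868 and 0.0663), Uqcrq 0.28 (adjusted p = 0.157) and Uqcrc1 0.37 (adjusted p = 0.0688). Uqcr11 read 9.08, 8.98 and 9.25 in deficient LN arrays on its first probeset, Uqcrq 10.53, 10.42 and 10.66, and Uqcrc1 9.20, 9.58 and 9.49. All lay below both T arrays. Without deficient LN replicate 2, Uqcrc1 passed at 0.45 (adjusted p = 0.0422). Ndufa6 gave -0.21 (adjusted p = 0.151) and the brighter Ndufb11 probeset -0.25 (adjusted p = 0.0574).

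Genes that serve the respiratory chain but lie outside the set were read from lists chosen with earlier results of these data known. In deficient against wildtype LN cells none of them passed. In T against wildtype LN cells the counts below stand against 18.0% of all probesets called, 7.66% higher and 10.4% lower, and with so few genes per list nothing is read from them. Each listed gene was read on its probeset of smallest p, so a share per gene is unlike the share per probeset. Of 37 measured assembly genes, a list that includes Sdhaf members, 5 were higher and 1 lower, with a median of 0.08. Uqcc1, which helps cytochrome b get made and placed in complex III, averaged 9.18 ± 0.13 in T cells (SD, n = 2) and 8.47 ± 0.14 in wildtype LN cells (SD, n = 3), a difference of 0.71 with a limma adjusted p of 0.000926. The ATP synthase assembly factor Atpaf2 (0.48), the complex IV factors Coa7 (0.44) and Cox10 (0.39), and Taco1 (0.41), a translational activator of the mitochondrial Cox1 message, were higher as well. Only Uqcc1 of these kept its call under all alternatives run: without T replicate 2 Atpaf2 was 0.40, Coa7 0.41, Cox10 0.36 and Taco1 0.44, without T replicate 1 Cox10 was 0.42 and Taco1 0.39, without wildtype LN replicate 2 Cox10 was 0.34 and without wildtype LN replicate 3 Taco1 was 0.37, none past the test.

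Of 8 electron carrier genes outside the set, 3 were higher (7.66% of all probesets) and none lower, with a median of 0.06. Etfb, a subunit of the electron transfer flavoprotein, differed by 0.50 (adjusted p = 0.0178), Dhodh, the pyrimidine synthesis enzyme that feeds coenzyme Q, by 0.30 (adjusted p = 0.0159) and Gpd2, the glycerol phosphate shuttle enzyme, by 0.26 (adjusted p = 0.0337). Without T replicate 2 all 3 lost the call (0.44, 0.27 and 0.20), and over every probeset of the table Etfb and Gpd2 did. Etfb also lost it without T replicate 1 (0.55), Dhodh without wildtype LN replicate 3 (0.30) and Gpd2 without T replicate 1 (0.32) or any 1 wildtype LN array (0.25 to 0.27). Cytochrome c, Cycs, gave -0.17 (adjusted p = 0.266) on its probeset with the smallest p, which averaged 7.66 in T and 7.83 in wildtype LN cells. A brighter Cycs probeset averaged 12.18 in T and 12.14 in wildtype LN cells. Cytochrome c1, Cyc1, gave 0.14 (adjusted p = 0.377), and is a complex III subunit that the choice by symbol left outside the set. Of 12 coenzyme Q genes 1 passed, Coq10b, at -0.49 (adjusted p = 0.00498), a call lost without T replicate 1 (-0.42).

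Of 15 genes for copying and transcribing mitochondrial DNA, 3 were higher and 4 lower in T cells, where 18.0% of all probesets were called, with a median of -0.09. Lrpprc, which stabilises mitochondrial messages, was higher by 0.48 (adjusted p = 0.00174), the helicase Twnk by 0.43 (adjusted p = 0.00601) and the elongation factor Tefm by 0.35 (adjusted p = 0.018). Mterf2 was lower by -0.70 (adjusted p = 0.00259), the polymerase accessory subunit Polg2 by -0.59 (adjusted p = 0.003), Mterf3 by -0.36 (adjusted p = 0.0291) and Tfb1m, a ribosomal RNA methyltransferase, by -0.34 (adjusted p = 0.0237). Lrpprc, Mterf2 and Polg2 kept the call under all alternatives run. Twnk lost it without T replicate 2 (0.35), and Tefm without wildtype LN replicate 1 (0.28), T replicate 1 (0.38) or T replicate 2 (0.33). Mterf3 lost it without T replicate 1 (-0.28) or wildtype LN replicates 2 and 3 (-0.31 and -0.37), and Tfb1m without T replicate 1 (-0.26) or any 1 wildtype LN array (-0.35 to -0.32). Both also lost it over every probeset of the table, and Mterf3 after a second quantile normalization (-0.30). The 13 subunits encoded by mitochondrial DNA itself were not analysed here.

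Of 11 regulators of respiratory genes, 2 were higher and none lower, where 18.0% of all probesets were called (7.66% higher), with a median of 0.14. Pprc1, a coactivator of the PGC-1 family, averaged 8.94 ± 0.02 in T cells (SD, n = 2) and 8.35 ± 0.10 in wildtype LN cells (SD, n = 3), and was higher by 0.59 (limma adjusted p = 0.00273). Nrf1, whose motif was searched above, was higher by 0.28 (adjusted p = 0.0456), a call that few settings kept: it was lost after median centring (0.29), over every probeset of the table, with only the 2 groups compared and with a trended robust variance (0.28 in each), and without any 1 array other than wildtype LN replicate 1, with 0.22 without T replicate 1 and 0.35 without T replicate 2. Gabpa gave -0.17, Esrra 0.11, Yy1 0.10 and Ppargc1a -0.19, none past the test. Of 9 genes for nucleotide exchange and outer membrane pores, Vdac1, a pore that passes metabolites, was higher by 0.65 (adjusted p = 0.00288) under all alternatives run, at 10.99 ± 0.03 in T cells (SD, n = 2), against 10.34 ± 0.22 in wildtype LN cells (SD, n = 3).

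Against deficient LN cells, whose comparison uses the same T arrays, 4 of 37 assembly genes were higher and 2 lower, 2 of 8 electron carriers were higher, 1 of 12 coenzyme Q genes was higher, 3 of 15 mitochondrial DNA genes were higher and 2 lower, and 1 of 11 regulators and 1 of 9 exchange and pore genes were higher. Among all probesets 14.1% were called, 5.98% higher and 8.16% lower, and with so few genes per list nothing is read from these counts. Uqcc1 gave 0.52 (adjusted p = 0.00762), Taco1 0.46 (adjusted p = 0.00994), Lrpprc 0.39 (adjusted p = 0.00732), Pprc1 0.55 (adjusted p = 0.00552) and Vdac1 0.46 (adjusted p = 0.0243). Mterf2 gave -0.54 (adjusted p = 0.0143) and Polg2 -0.40 (adjusted p = 0.0288). Single arrays decided all of these but Pprc1. Without T replicate 1 Taco1 was 0.43, Lrpprc 0.31, Vdac1 0.49 and Mterf2 -0.38, and without T replicate 2 Uqcc1 was 0.44, Vdac1 0.44 and Polg2 -0.29. Without deficient LN replicate 1 Vdac1 was 0.46 and Polg2 -0.32, and without deficient LN replicate 2 Vdac1 was 0.41. Over every probeset of the table the calls of Vdac1, Mterf2 and Polg2 were lost, and that of Polg2 also with only the 2 groups compared.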

How the data were processed

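RNA of 8 mouse cell samples was measured on expression arrays. The authors deposited log2 values made with RMA in Partek 6.5, per the submitters' processing notes; RMA normalises arrays to a common distribution, so a shift shared by all transcripts would not show. Array scanner signals were not analysed here, so background and batch could not be checked, and precision is set by how few arrays there are. Genes were taken from the platform annotation. Of 35399 probesets, 11989 with no gene and 1621 with several were left out. limma 3.58.1 in R 4.3.3 (lmFit, eBayes) fitted the 3 groups over 8 arrays (5 residual degrees of freedom), with Benjamini-Hochberg adjustment over 21789 probesets and a threshold of 0.05, two-sided. The test was checked on simulated data with independent noise for each probeset and no shift shared within an array. That check therefore does not cover arrays that often sit at the edge. Named genes are the members that passed (the 6 largest differences between genotypes), a panel of core subunits and isoforms, and up to 4 called genes per pathway list; genes named beyond this, such as Ndufab1, Uqcrb, Uqcrh, Uqcr10, Cox10, Taco1, Tefm, Mterf3, Tfb1m, Cycs, Cyc1 and the uncalled regulators, were chosen after their values were seen. Members and lists were chosen with earlier results of these data known. Alternatives changed the scaling, filter, variance model, block, threshold, probeset choice and arrays used. Leaving out a T array leaves 1, assumed to vary like the other groups.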

Additional observations from a re-analysis of the deposited data

How the results depend on the processing

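Between deficient and wildtype LN cells 0 members passed under every alternative run (lowest and highest medians -0.04 and -0.01). Between T and wildtype LN cells, 14 members passed; the count was 9 over every probeset of the table, 22 with a trended robust variance, 4 at an adjusted p under 0.01, and 5 to 14 when 1 array was left out. Between T and deficient LN cells, 12 passed; the count was 5 over every probeset, 6 with only the 2 groups compared, 19 with a trended robust variance, 7 with 1 probeset per gene, 2 at an adjusted p under 0.01, and 3 to 12 when 1 array was left out. The cause of these shifts was not tested, beyond the fewer arrays, the larger number of tests and the single probesets that the alternatives imply. Leaving out the assembly factors, an alternative chosen after seeing the data, gave 12 and 10. The median differences stayed within 0.00 to 0.04 and 0.02 to 0.06. The deviations of same-numbered arrays from their group means had correlations of -0.25 to 0.16. With 2 or 3 arrays a group these deviations are bound to each other, so the correlations can neither show nor exclude a pairing. With the replicate block the counts were 0, 12 and 11, in the order above. Among the genes named, the block left uncalled Ndufaf2, 1 Cox7a2l probeset, Gpd2, Tfb1m and Nrf1 against wildtype LN cells, and Ndufaf2, Ndufab1, Ndufa5, both Cox7a2l probesets and Polg2 against deficient LN cells. For the probesets named, 195 of 248 called values kept the call against wildtype LN cells and 53 lost it, and 134 of 211 kept it against deficient LN cells and 77 lost it; none turned its direction while called, and 39, 11 and 18 uncalled values changed sign in the 3 comparisons. Probesets shared by several genes (Cox7c, Ndufb4) were left out. The 2 T arrays, the mixture of cell types in each sort and the small differences limit what could be seen.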
